A study of Mus musculus with 6 samples.

Results

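The small heat shock proteins of muscle were followed here through 7 genes, Hspb1, Hspb2, Hspb3, Hspb6, Hspb7, Hspb8 and Cryab. Their members were the 14 probe sets that the platform annotation assigns to 1 of these genes alone, out of 45033 probe sets tested on Affymetrix mouse arrays, and 0 probe sets name a member together with another gene. Hspb7, Hspb8 and Cryab have 3 probe sets each, Hspb1 has 2, and Hspb2, Hspb3 and Hspb6 have 1 each. All RNA came from C2C12, a line of mouse myoblasts that fuses into contractile myotubes once serum is lowered, after 28 hours in medium with 2% horse serum. The 3 control arrays carry RNA of cells transfected with shRNA, a short hairpin RNA, that targets GFP, and the 3 knockdown arrays RNA of cells transfected with an shRNA against PRDM2, a histone methyltransferase of the PR domain family. The labels describe the arrays of a group as biological replicates and number them 1 to 3. The sources used here do not state the hairpin sequences, their number, or whether cells were clones or pools. The comparison asks how expression in differentiating cells differs when PRDM2 is targeted.

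Small heat shock proteins share a conserved alpha-crystallin domain, assemble into oligomers and hold unfolding proteins in a soluble state without using ATP, until ATP-dependent chaperones refold them or hand them to degradation. Skeletal and cardiac muscle express many of them, and they bind actin, desmin, titin and filamin, the filaments that contraction strains. Mutations of CRYAB and HSPB8 cause inherited muscle disease, and HSPB2 and HSPB3 form a joint complex that appears as myoblasts differentiate under MyoD.

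The stress-inducible members are controlled through heat shock elements, which bind heat shock factor, and muscle genes often through E-boxes, which bind MyoD and myogenin. RefSeq promoter windows of build GRCm38.p6 matched 5 of the 7 genes. Shown are the 250 bases before the start of Hspb1 and Hspb3, the genes with the lowest log2 fold changes, and of the downstream of the 2 annotated starts of Hspb6, which shares 1 element with Hspb1 letter for letter. Capitals mark the heat shock element GAANNTTC or TTCNNGAA and the TATA box TATAAA, searched on both strands.
Hspb1, chr5:135887669-135887918, plus strand: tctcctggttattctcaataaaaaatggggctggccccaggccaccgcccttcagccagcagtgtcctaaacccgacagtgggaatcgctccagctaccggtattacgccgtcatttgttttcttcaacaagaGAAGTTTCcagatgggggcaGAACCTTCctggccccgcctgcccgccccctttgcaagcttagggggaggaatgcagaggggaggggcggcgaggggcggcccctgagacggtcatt
Hspb3, chr13:113663677-113663926, minus strand: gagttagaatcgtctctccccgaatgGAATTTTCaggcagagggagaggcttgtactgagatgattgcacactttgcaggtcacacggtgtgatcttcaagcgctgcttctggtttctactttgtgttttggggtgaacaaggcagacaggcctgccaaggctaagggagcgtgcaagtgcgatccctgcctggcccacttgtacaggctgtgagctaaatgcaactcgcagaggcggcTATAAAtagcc
Hspb6, chr7:30553051-30553300, plus strand: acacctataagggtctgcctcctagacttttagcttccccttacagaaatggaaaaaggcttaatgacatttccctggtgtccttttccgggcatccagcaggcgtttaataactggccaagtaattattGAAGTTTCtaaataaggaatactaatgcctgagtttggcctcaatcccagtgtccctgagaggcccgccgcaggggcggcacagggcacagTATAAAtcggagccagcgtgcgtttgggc

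In Hspb1 the elements GAAGTTTC and GAACCTTC began 117 and 97 bases before the start. GAAGTTTC also stood 120 bases before that start of Hspb6, and Hspb3 held GAATTTTC at 224 bases. The windows of Hspb7, of Hspb8 and of the upstream start of Hspb6, not shown, held neither form of the element. Of all 32851 windows of 250 bases, 6.69% held GAANNTTC, 7.17% TTCNNGAA and 12.4% TATAAA. The E-box CANNTG was matched by CATTTG and CAGATG in Hspb1, by CAAGTG and CACTTG in Hspb3, by CATCTG in Hspb7 and by CAGTTG in Hspb8. It occurs in 66.2% of windows, and its form CAGCTG, in 13% of windows, was in none of the 6 windows of the members. CAGATG in Hspb1 directly follows GAAGTTTC with 0 shared bases. A match describes letters only.

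Median intensity per array was 10.7 to 11.4 units. Values below are log2(intensity + 16) after quantile normalization, a scale whose floor is 4 and whose median probe set is 4.76. Values of a group are listed in the order of replicates 1, 2 and 3. Probe sets differ in how strongly they hybridise, so levels are not ranked between genes. Control replicate 2 stood apart from the other controls. Its log2 difference from knockdown replicate 2 had a median absolute deviation, scaled to match an SD, of 0.09 over genes at or above the median probe set. That was the smallest of the 15 pairs of arrays, and the next smallest was 0.20. On its brightest probe set, 1453068_at, Prdm2 did not separate the groups, so every direction rests on the labels. It read 6.19, 6.42 and 5.94 in the controls and 6.67, 6.32 and 6.02 in the knockdown arrays. Where its probe sets lie relative to the hairpin's target was not analysed here. All 12 markers of differentiated skeletal muscle were at or above the median probe set, with list means of 10.2 to 10.5 in controls and of 10.5 in the knockdown arrays. The 7 markers of undifferentiated myoblasts averaged 7.70 to 8.47 in controls and 7.70 to 8.03 in knockdown arrays. Means over 9 fibroblast and smooth muscle markers were 8.08 to 8.99 and 8.87 to 9.11 in turn, and over 4 adipocyte and osteoblast markers 4.63 to 4.88 and 4.63 to 4.76. Since each array holds a bulk sample, fewer cells of a type and less RNA per cell cannot be told apart.

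No small heat shock protein passed the threshold for a difference between knockdown and control. With all 6 arrays, 0 of the 14 probe sets passed an adjusted p of 0.05 in the higher direction and 0 in the lower (limma), against 0% and 0% of all probe sets tested. At an unadjusted p under 0.05 there were 0 of 14 in this fit, which has no block on replicate number, against 2.94% of all. The groups did not overlap in 0 of 14, against 7.24% of all. Log2 fold changes were negative in 9 and positive in 5 of the 14, with a median of -0.04 beside -2.9e-05 over all probe sets. Of the 14, 13 were at or above the median probe set. These 13 spanned a median of 0.45 log2 units between their lowest and highest array, beside 0.46 for all probe sets as bright.

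**Figure D1:**
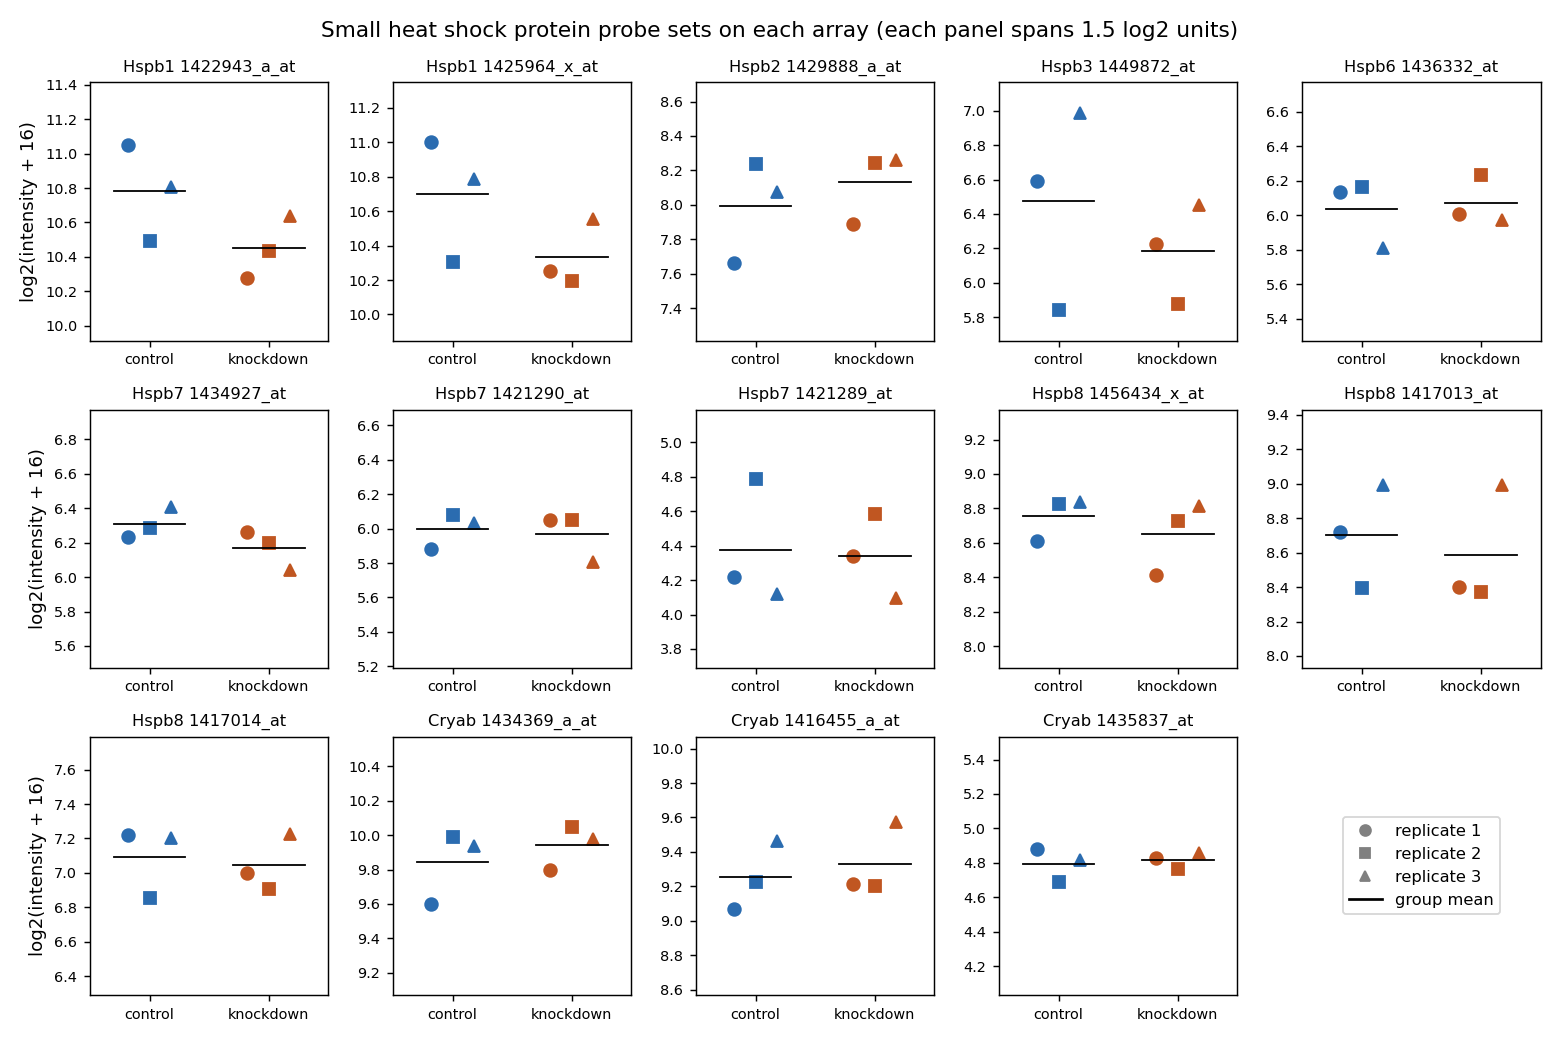
Log2(intensity + 16) of the 14 probe sets on each array, with controls on the left and knockdown arrays on the right of each panel, a symbol per replicate number and a line at each group mean. Every panel spans 1.5 log2 units, and in all 14 panels the 2 groups overlap.

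Hspb1, the stress-inducible member that binds actin and is phosphorylated in the p38 kinase cascade, had the lowest log2 fold changes of the set with all 6 arrays. Its brighter probe set, 1422943_a_at, read 11.05, 10.49 and 10.81 in the controls and 10.28, 10.43 and 10.64 in the knockdown arrays. Control replicates 1 and 3 were above every knockdown array, and control replicate 2 lay among them. In deposited intensity units control replicates 1 and 3 stood at 2170 and 1743, and the other 4 arrays between 1315 and 1431. Group means were 10.78 ± 0.28 (SD, n = 3) in controls and 10.45 ± 0.18 (SD, n = 3) in knockdown arrays. The log2 fold change came to -0.34 (SE 0.16, 95% interval -0.72 to 0.05, adjusted p = 1.00 with limma).

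The other Hspb1 probe set, 1425964_x_at, whose suffix marks probes that may bind further transcripts, followed the same course. It read 11.00, 10.30 and 10.79 in the controls and 10.25, 10.19 and 10.55 in the knockdown arrays. Across the 6 arrays its Pearson correlation with 1422943_a_at was 0.96. Its log2 fold change was -0.36 (SE 0.19, 95% interval -0.82 to 0.10, adjusted p = 1.00 with limma). Within replicate numbers 1, 2 and 3 the knockdown array differed from its control by -0.78, -0.06 and -0.17 on 1422943_a_at, and by -0.75, -0.11 and -0.23 on 1425964_x_at. The differences were negative on both probe sets, and number 1 had the largest. Both probe sets read the same 3 pairs of arrays, so these are not 6 separate observations. The arrays numbered 2 were the closest of all pairs of arrays. Without control replicate 1 alone the log2 fold changes were -0.20 and -0.21.

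Hspb3, the muscle partner of Hspb2, varied more between arrays than any other member. Its probe set 1449872_at read 6.59, 5.84 and 6.99 in the controls and 6.22, 5.88 and 6.45 in the knockdown arrays. The arrays numbered 2 were lowest in both groups and those numbered 3 highest, and control replicates 1 and 3 lay above all knockdown arrays. Intensities ran from 44.0 units in control replicate 2 to 105.7 in control replicate 3. It stood at a log2 fold change of -0.29 (SE 0.30, 95% interval -1.0 to 0.42, adjusted p = 1.00 with limma), smaller in size than the control SD of 0.58. Without control replicate 3 alone it was -0.034, without knockdown replicate 2 alone -0.14, and without control replicate 2 alone -0.60. By replicate number the differences were -0.37, 0.03 and -0.53.

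Hspb2, which binds the myotonic dystrophy protein kinase, did not share the course of Hspb3. On 1429888_a_at it read 7.66, 8.24 and 8.07 in the controls and 7.89, 8.24 and 8.26 in the knockdown arrays. Number 1 was lowest in both groups, and control replicate 1 was lowest of all. Its log2 fold change stood at 0.14 (SE 0.17, 95% interval -0.27 to 0.55, adjusted p = 1.00 with limma), and without control replicate 1 it was -0.02. Over the 6 arrays Hspb2 and Hspb3 had a Pearson correlation of -0.42, a description of arrays that share their replicate numbers.

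Cryab, the alpha-B crystallin that protects desmin filaments, had its brightest probe set at 9.60, 9.99 and 9.94 in the controls and at 9.80, 10.05 and 9.98 in the knockdown arrays (1434369_a_at). Again control replicate 1 was the lowest array and knockdown replicate 1 the next. The log2 fold change came to 0.10 (SE 0.13, 95% interval -0.20 to 0.40, adjusted p = 1.00 with limma), and -0.02 without control replicate 1. A second probe set, 1416455_a_at, read 9.07, 9.23 and 9.46 in the controls and 9.21, 9.20 and 9.57 in the knockdown arrays. Here the arrays numbered 3 were highest in both groups, at a log2 fold change of 0.08 (SE 0.14). The third, 1435837_at, lay between 9.43 and 13.2 intensity units, under the offset of 16, and its log2 fold change was 0.02 (SE 0.08), a size that the offset limits.

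Hspb2 and Cryab are neighbours, and in the RefSeq gene table of GRCm38.p6 Hspb2 lies within the span of the annotated Cryab transcripts. Their brightest probe sets had a Pearson correlation of 0.98 over the 6 arrays. Of 11441 genes at or above the median probe set, 18 (0.157%), Cryab itself counted, correlated with Hspb2 at least as highly as Cryab did. This pair was singled out after the values were seen. The correlation of Hspb2 with the other Cryab probe sets was 0.59 for 1416455_a_at and -0.61 for the dim 1435837_at, so it was a feature of 1 of the 3. Which transcripts each probe set reads was not tested.

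**Figure D2:**
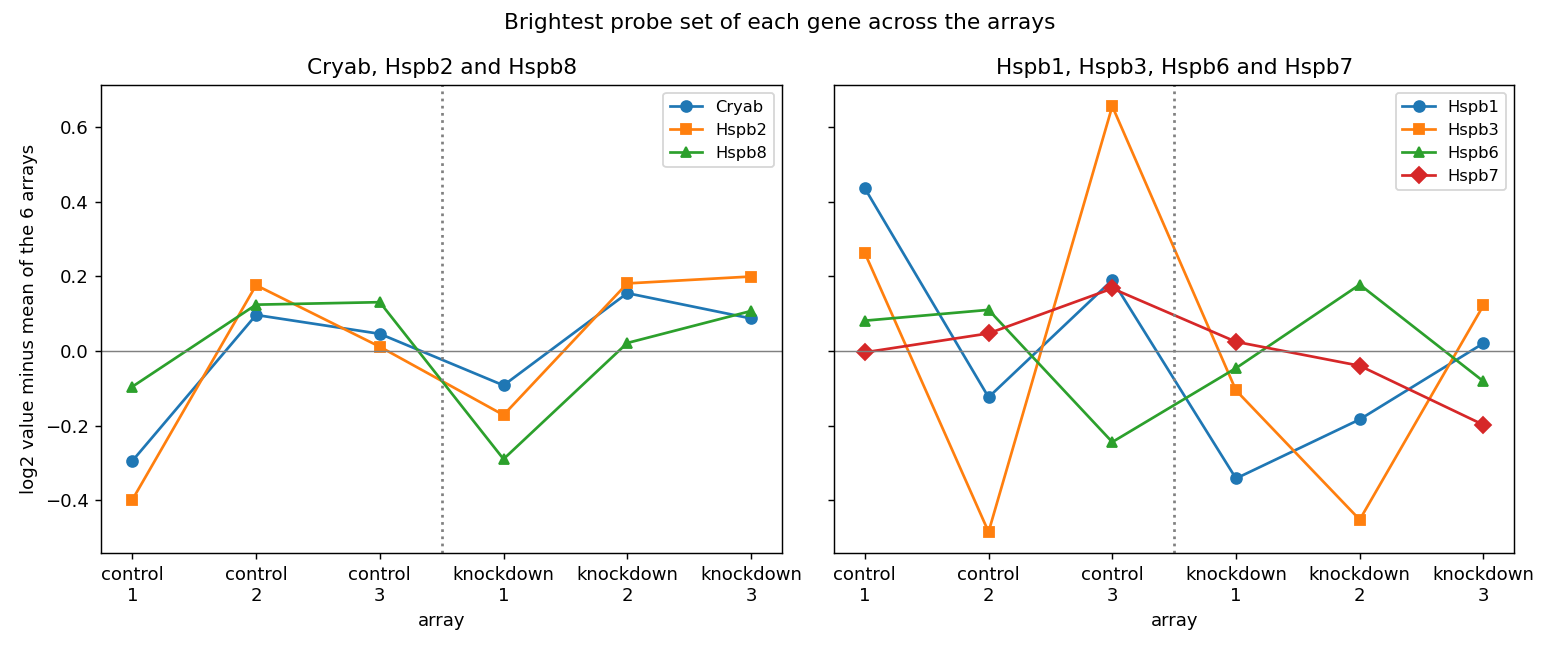
Log2 value of the brightest probe set of each of the 7 genes minus its own mean over the 6 arrays, with a dotted line between control and knockdown arrays and lines joining points only to guide the eye. Hspb2 and Cryab are lowest in control replicate 1, whereas Hspb1 and Hspb3 are highest in control replicates 1 and 3.

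Hspb8, which works with Bag3 to send damaged filamin to autophagy, gave 3 negative log2 fold changes of small size. The brightest probe set, 1456434_x_at, read 8.61, 8.83 and 8.83 in the controls and 8.41, 8.73 and 8.81 in the knockdown arrays. Number 1 was lowest in both groups. The log2 fold change came to -0.11 (SE 0.13, 95% interval -0.41 to 0.19). On 1417013_at the values were 8.72, 8.39 and 8.99 in the controls and 8.40, 8.37 and 8.99 in the knockdown arrays. There number 2 was lowest and number 3 highest in both groups, at a log2 fold change of -0.12 (SE 0.22). The third, 1417014_at, stood at -0.05 (SE 0.13) and correlated with 1417013_at at 0.91, but with 1456434_x_at at 0.08. The 3 probe sets of Hspb8 thus agreed in sign with all 6 arrays, although not in their course across arrays, and each turned positive when 1 or more single arrays were left out.

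Hspb7, a member of heart and skeletal muscle that binds filamin C, read 6.24, 6.29 and 6.41 in the controls and 6.26, 6.20 and 6.04 in the knockdown arrays on 1434927_at. Knockdown replicates 2 and 3 were below every control, and knockdown replicate 1 lay between control replicates 1 and 2. At a log2 fold change of -0.14 (SE 0.09, 95% interval -0.35 to 0.07, adjusted p = 1.00 with limma) the groups overlapped, and without knockdown replicate 3 or control replicate 3 it was -0.078 or -0.093. Probe set 1421290_at stood at -0.03 (SE 0.10). The third, 1421289_at, read between 1.12 and 11.4 intensity units, under the offset on every array, and stood at -0.04 (SE 0.20). It was highest in the arrays numbered 2 of both groups.

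Hspb6, a phosphorylated member linked to relaxation of smooth muscle and to protection of the heart, read 6.14, 6.17 and 5.81 in the controls and 6.01, 6.23 and 5.97 in the knockdown arrays (1436332_at). Number 2 was highest and number 3 lowest in both groups. The log2 fold change came to 0.03 (SE 0.12, 95% interval -0.26 to 0.33, adjusted p = 1.00 with limma). Its intensities ran from 38.9 to 60.7 units. Over the 6 arrays its log2 values had a Pearson correlation of -0.82 with those of Hspb3, the lowest among pairs of members. This pair was singled out after the values were seen. Of 11441 genes at or above the median probe set, 88.4% correlated with Hspb3 at or above that value, and the rest lay lower still.

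Without control replicate 2, the array that lay next to knockdown replicate 2, the log2 fold changes of Hspb1 and Hspb3 were further from 0 and did not pass the threshold. Of the 14 probe sets 0 were called in that fit, against 0.266% of all probe sets in the higher direction and 0.262% in the lower. At an unadjusted p under 0.05 there were 3 of 14, against 10.2% of all, and these were both probe sets of Hspb1 and the 1 of Hspb3. In the same 3 the knockdown arrays lay below both remaining controls, against 26.4% of all probe sets whose groups did not overlap in either direction. On 1422943_a_at the log2 fold change of Hspb1 was -0.48 (SE 0.14, 95% interval -0.81 to -0.15, adjusted p = 0.27 with limma), with controls 1.40-fold above knockdown. On 1425964_x_at it was -0.56 (SE 0.14, adjusted p = 0.21), or 1.47-fold. Hspb3 stood at -0.60 (SE 0.20, 95% interval -1.08 to -0.12, adjusted p = 0.35), or 1.52-fold. Choosing this array to leave out followed earlier results of these data.

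The other genes stayed closer to 0 than Hspb1 and Hspb3 without control replicate 2, although some of their probe sets moved further from 0. Hspb2 and Cryab (1434369_a_at) stood at 0.26 (SE 0.17) and 0.17 (SE 0.13), and Hspb8 on 1417013_at at -0.27 (SE 0.21). The signs of 1421290_at and 1421289_at of Hspb7 and of 1435837_at of Cryab turned, to 0.01, 0.17 and -0.03. The median of the 14 was -0.05, beside -0.0032 over all probe sets. With both arrays numbered 2 left out and the replicate number as a block, 1.59% of all probe sets were called and 0 of the 14, the lowest adjusted p being 0.11 for Hspb3.

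Most, but not all, fibroblast and smooth muscle markers were lowest on the arrays where Hspb1 and Hspb3 were highest. Their list mean was 8.16 and 8.08 in control replicates 1 and 3, where both genes were highest, and 8.87 to 9.11 in the other 4 arrays. Of the 9 markers 8 were at or above the median probe set, and Myh11, the smooth muscle myosin, was the exception, with group means of 4.5 and 4.74. In 7 of the 9 both control replicates 1 and 3 lay below the other 4 arrays, against 12.7% of 18192 genes. Col3a1, a chain of type III collagen, went the other way, at 11.74 and 11.72 in control replicates 1 and 3 and 11.27 to 11.57 in the others. Myh11 was lowest in control replicate 2, at 4.31. Tagln, a smooth muscle actin-binding protein, read 8.63 and 8.35 in control replicates 1 and 3 and 10.04 to 10.60 in the others. Cnn1, the calponin of smooth muscle, read 5.57 and 5.08 there and 5.75 to 7.09 elsewhere. Among the 7 markers of undifferentiated myoblasts, 4 had control replicates 1 and 3 above the other arrays, against 14.5% of all genes, and Myod1, Mki67 and Top2a did not. Myf5, which commits cells to the myogenic fate, read 7.55 and 7.60 in control replicates 1 and 3 and 5.50 to 5.84 in the others. Ccnd1, cyclin D1, read 8.62 and 8.33 there and 7.75 to 7.92 elsewhere. Mki67, a marker of cycling cells, read 8.40 and 8.71 there and 8.50 to 9.12 elsewhere. Col3a1, Myh11, Mki67 and Top2a were singled out after their values were seen. Of the 12 markers of differentiated skeletal muscle, 3 had control replicates 1 and 3 below the other arrays and 1 had them above. Of the 4 adipocyte and osteoblast markers these counts were 0 and 1. Tnnt3, a troponin of fast fibres, stood at a log2 fold change of 0.39 (SE 0.19). Ibsp of bone was at -0.09 (SE 0.09) and Fabp4 of fat cells at -0.14 (SE 0.20). Both lay under the offset on every array, at 2.21 to 5.88 and 3.16 to 15.1 intensity units, which limits those sizes. Setting control replicates 1 and 3 against the other arrays was not planned and follows the values of Hspb1 and Hspb3. The marker lists were chosen with earlier results of these data known, so these counts are description alone. The part of any of these markers in the values of Hspb1 and Hspb3 was not tested.

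**Figure D3:**
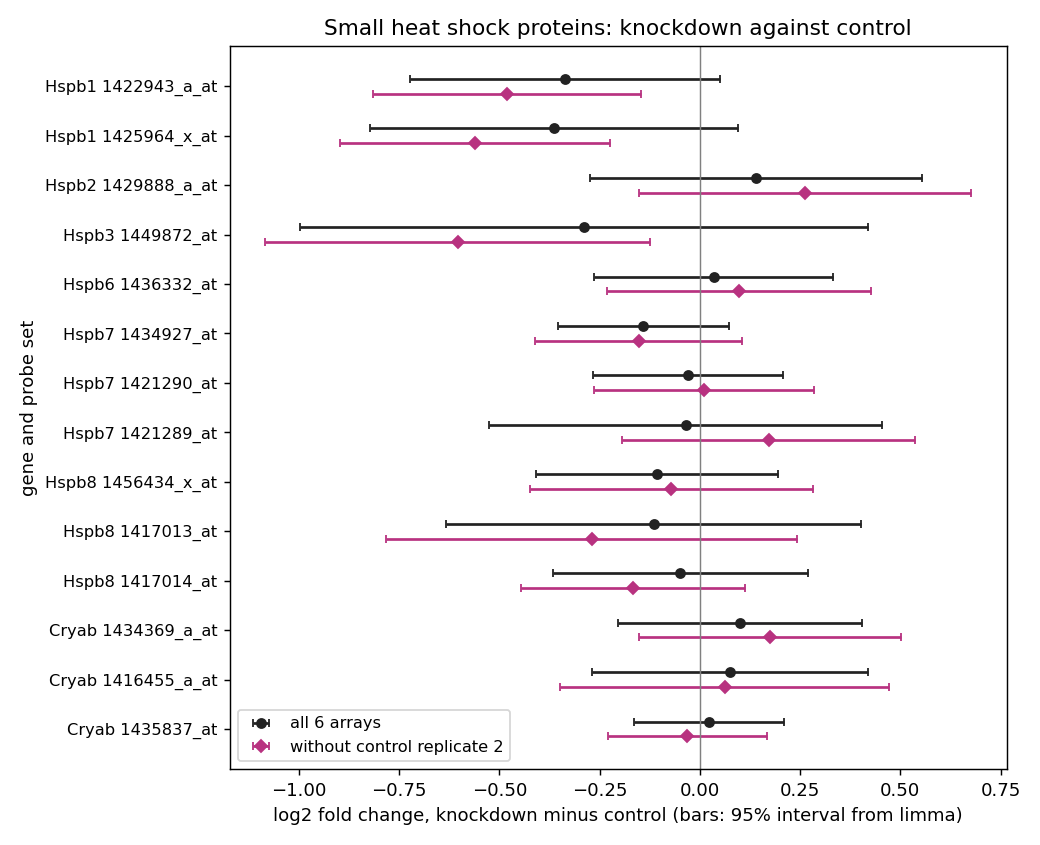
Log2 fold change, knockdown minus control, of the 14 probe sets with 95% intervals from limma, with all 6 arrays (circles) and without control replicate 2 (diamonds). In these fits, which have no block on replicate number, all intervals include 0 with 6 arrays. The intervals of the 2 Hspb1 probe sets and of Hspb3 lie below 0 without control replicate 2, before adjustment over all probe sets.

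Arrays of the same replicate number often stood alike in both groups, for the members as for all probe sets. In 6 of the 14 probe sets the 3 arrays stood in the same order in both groups, against 29.8% of all probe sets. The arrays numbered 2 were lowest in both groups in 5 of 14, against 21.7% of all, and highest in both in 3 of 14, against 20.7%. A test of the replicate number itself, in the fit with group and number, called 0 of 14, against 4.07% of all probe sets. This test was chosen after the values were seen. Its lowest adjusted p among the members was 0.056, for Hspb3, followed by 0.060 for 1417013_at of Hspb8 and 0.062 for 1421289_at of Hspb7 (limma).

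By Pearson correlation over the 6 arrays, among 11441 genes at or above the median probe set, Hspb1 was most like Hectd4, Vwa1 and Abhd8, at 0.996, 0.993 and 0.991. Hspb3 was most like 2700097O09Rik, Hsbp1, which binds heat shock factor, and Espl1, the separase that parts sister chromatids, at 0.994, 0.994 and 0.993. For Hspb2 these were Adam9, Tcp1, a subunit of the cytosolic chaperonin, and Col6a1, a chain of type VI collagen, at 0.994, 0.993 and 0.993. Cryab was most like Atf5, Nr1d2 and Macrod1, at 0.990, 0.985 and 0.984, and Hspb8 like Tspan14, Farp1 and Cryl1, at 0.997, 0.995 and 0.992. For Hspb6 the nearest were Slc38a10, Glg1 and Ubr4, at 0.988, 0.984 and 0.980. Hspb7 had lower values, at 0.966 for Sik1, 0.958 for Casq1, the calcium store protein of fast fibres, and 0.947 for Zfp672. With 6 arrays these values describe likeness alone.

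No small heat shock protein of the other tissues passed the threshold. Cryaa of the lens and Hspb9 of testis lay between 4.09 and 4.46 on every array, near the floor of 4. Odf1, a sperm tail protein, stood at a log2 fold change of 0.17 (SE 0.16). Hspb11, a protein of cilia named with this family, read 7.18, 7.10 and 7.36 in the controls and 6.65, 7.08 and 7.10 in the knockdown arrays. All 3 knockdown arrays lay below the controls, the nearest of them narrowly, at a log2 fold change of -0.27 (SE 0.14). Of these 4 genes 0 were called in either direction, and 0 had an unadjusted p under 0.05 (limma).

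Among 14 genes of Bag3 and chaperone-assisted autophagy 0 were called higher and 0 lower. Of the 14, 1 had an unadjusted p under 0.05, against 2.94% of all probe sets (limma). Their median log2 fold change was -0.06. Without control replicate 2, 5 of the 14 had an unadjusted p under 0.05, against 10.2% of all probe sets (limma). Of the 5, Bag1 and Wipi1 were higher on knockdown, and Map1lc3a, Dnajb2 and Stub1 lower. The lists take the brightest probe set of each gene, whereas the shares over all probe sets, here and below, include dim ones. Bag3, the co-chaperone of Hspb8, read 8.03, 8.28 and 8.07 in the controls and 7.90, 8.25 and 8.28 in the knockdown arrays. Control replicate 2 and knockdown replicates 2 and 3 stood highest, at a log2 fold change of 0.01 (SE 0.13). Flnc, the filamin that this route clears, was at 0.03 (SE 0.12). Map1lc3a, a protein of autophagosome membranes, was at -0.44 (SE 0.18), and Wipi1, which acts in autophagosome formation, at 0.39 (SE 0.18), with 7.55 and 7.57 in control replicates 1 and 3 and 8.09 to 8.21 in the other arrays.

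Of 25 genes of the heat shock response 21 were analysed here, Hsf1 not among them, and 0 were called higher and 0 lower. Of the 21, 2 had an unadjusted p under 0.05, against 2.94% of all probe sets (limma). The median log2 fold change was -0.04, and -0.15 without control replicate 2. In that fit 6 of the 21 had an unadjusted p under 0.05, against 10.2% of all probe sets (limma). Hspa1b, an inducible chaperone of the HSP70 family, read 7.54, 6.95 and 7.40 in the controls and 6.76, 6.75 and 6.99 in the knockdown arrays. Its control replicates 1 and 3 stood above the rest, as in Hspb1, at a log2 fold change of -0.47 (SE 0.16, adjusted p = 1.00). Hspa1a, its near-identical copy, was at -0.30 (SE 0.09), with all 3 controls between 4.70 and 4.73 and the knockdown arrays between 4.28 and 4.56. It is dim, so the offset sets that size, and whether its probes also bind the copy was not tested.

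Muscle chaperones and the filaments that small heat shock proteins protect gave 0 calls higher and 0 lower among 10 genes. Their median log2 fold change was -0.07, with 0 at an unadjusted p under 0.05 (limma). Without control replicate 2, 2 of the 10 had an unadjusted p under 0.05, against 10.2% of all probe sets (limma). Des, the muscle intermediate filament held by Cryab, read 10.76, 10.43 and 10.90 in the controls and 10.38, 10.38 and 10.71 in the knockdown arrays. Control replicates 1 and 3 were highest, at a log2 fold change of -0.21 (SE 0.15). Smyd1, a methyltransferase that helps myosin assemble, stood at -0.29 (SE 0.15) and Vim, vimentin, at -0.13 (SE 0.08). Actn2, the actinin of the Z-disc and the highest point of the list in the plot of chaperone lists, was singled out after its values were seen. It read 4.58, 7.29 and 5.40 in the controls and 6.42, 7.26 and 5.60 in the knockdown arrays, highest in number 2 of both groups. It stood at 0.67 (SE 0.73, adjusted p = 1.00 with limma), and at 1.44 (SE 0.49, adjusted p = 0.37) without control replicate 2. Myod1 and Myog, the factors that start and carry differentiation, were at 0.03 (SE 0.12) and 0.10 (SE 0.14).

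**Figure D4:**
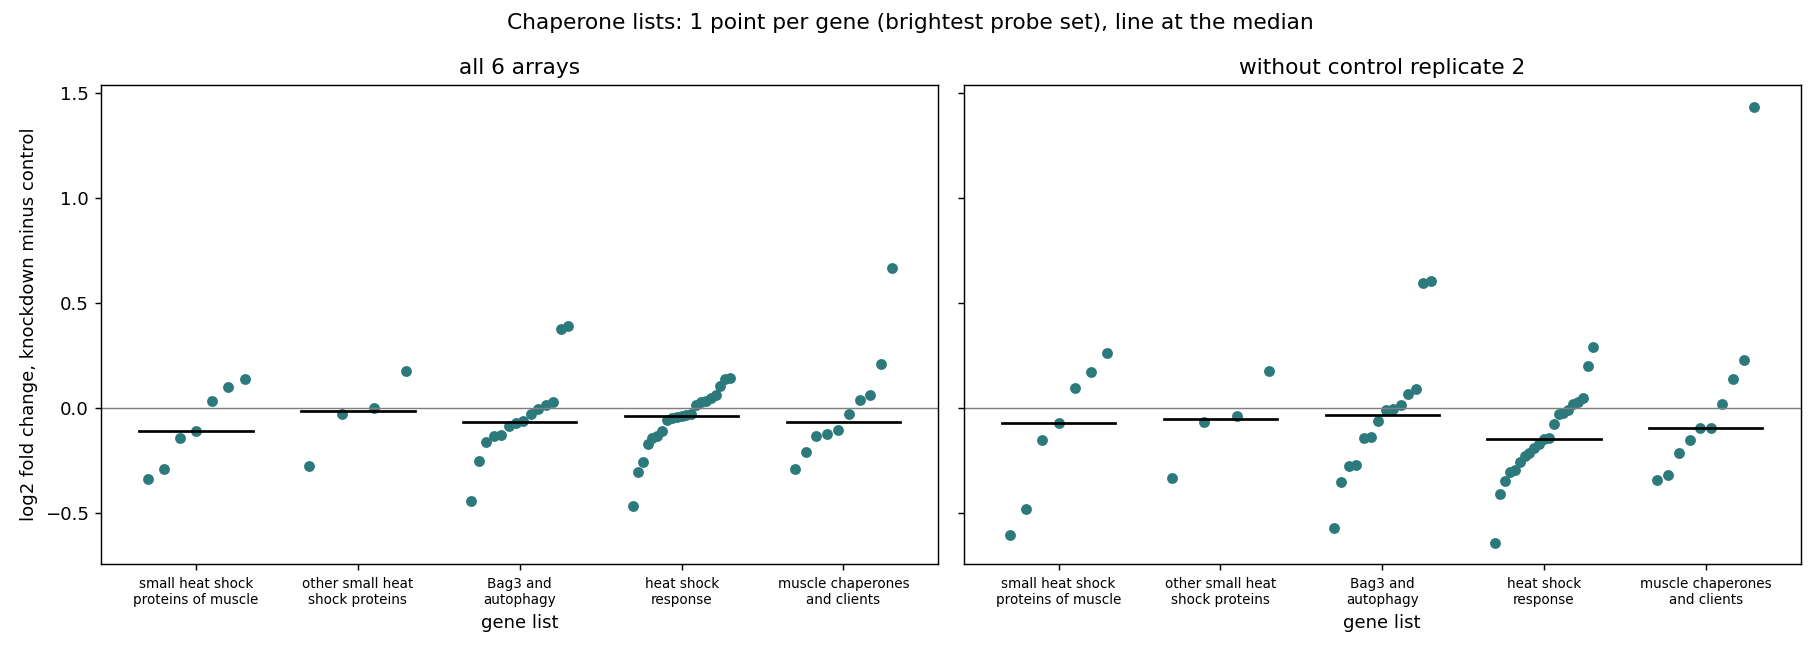
Log2 fold change, knockdown minus control, of the genes of 5 chaperone lists (brightest probe set of each gene, line at the median), with all 6 arrays on the left and without control replicate 2 on the right. With all 6 arrays the medians are -0.11 for the 7 small heat shock proteins and between -0.07 and -0.01 for the other lists. Without control replicate 2 the medians are -0.07 for the small heat shock proteins and between -0.15 and -0.03 for the other lists.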

How the data were processed

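Total RNA was taken with Trizol and biotinylated cRNA made from 8 ug of it, 1 array per sample, per the labels' protocols. The deposited values are linear probe set intensities. The submitters' processing notes name GCOS and PLIER, with no version or role, and the sources used here do not state how the authors scaled arrays to each other. Of 45101 probe sets, 64 array controls and 4 holding their gene's Entrez number in place of an intensity were left out. Log2(intensity + 16) was quantile normalized and fitted with limma 3.58.1 (R 4.3.3, lmFit, eBayes, two-sided). Benjamini-Hochberg adjustment ran over all 45033 probe sets, with a threshold of 0.05. On simulated data the fit recovered 70 of 100 changes of 1 log2 unit and 94 of 100 of 2 units, with 6 false calls. The simulated arrays were independent, so likeness between arrays was not covered, and smaller changes were not simulated. Simulated variances were drawn without regard to brightness. With all 6 measured arrays nothing was called, not even Col1a1 at 1.83 (SE 0.79) or Myf5 at -1.32 (SE 0.46). The simulated recovery therefore need not hold for the measured arrays. Genes other than the members are given by their brightest probe set. Platform annotation named 1 gene for 34941 probe sets, several for 932 and none for 9160.

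Deviations of same-numbered arrays from their group means correlated at 0.34, 0.59 and 0.66 over 18192 genes, so a block on replicate number was taken as pairing, on the evidence of the data rather than the labels. Unless a block is named, values come from the fit without it, whose p-values measure the spread between 3 arrays per group. With the block and all 6 arrays, Hspb3 had an SE of 0.12 (unadjusted p = 0.049, adjusted p = 0.63 with limma). For 1425964_x_at of Hspb1 the SE was then 0.13 (unadjusted p = 0.032, adjusted p = 0.63 with limma). The members and lists were chosen with earlier results of these data known. Named genes are all members, Prdm2, the 2 of smallest p per list, fixed partners (Hsf1, Bag3, Myod1, Myog, Des, Flnc), and the 3 most alike each member. Others were singled out after their values were seen. Some genes of the lists were not analysed here. The planned comparison of member proteins was not made. The number of arrays limits the precision.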

Additional observations from a re-analysis of the deposited data

How the results depend on the processing

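No member probe set was called with all 6 arrays under deposited or median scaling, with an offset of 1 or 64, a filter on dim probe sets, 1 probe set or the mean per gene, trend and robust eBayes, array weights, the replicate block (0 calls), or with any single array or both arrays numbered 2 left out. The same held without control replicate 2 under the 9 of these settings tried there. In the Bag3 and heat shock response lists 0 genes were called with all 6 arrays under those settings, or with those arrays left out. For these lists the further settings without control replicate 2 were not tried, and the other lists were not counted. Over all probe sets, leaving out 1 array gave 0 to 238 calls, the 238 without control replicate 2. Leaving out both arrays numbered 2 gave 57, or 717 with the replicate block. Without control replicate 2 the 238 became 132 with the deposited scaling, 127 with median centring, 11 and 14 with offsets of 1 and 64, 528 with trend and robust eBayes and 369 with array weights; the cause was not tested.

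Of 237 alternative log2 fold changes of the members, 216 kept their sign and 21 turned. Both Hspb1 probe sets, Hspb3 and 1434927_at of Hspb7 kept theirs throughout, but not their size. With single arrays left out, Hspb1 ranged from -0.48 to -0.20 (1422943_a_at) and -0.56 to -0.21 (1425964_x_at), nearest 0 without control replicate 1. Hspb3 ranged from -0.60 to -0.034, nearest 0 without control replicate 3, and 1434927_at of Hspb7 from -0.19 to -0.078, nearest 0 without knockdown replicate 3. Hspb2 ranged from -0.024 to 0.26 and Hspb6 from -0.079 to 0.098. Cryab ranged from -0.021 to 0.17 (1434369_a_at), -0.046 to 0.18 (1416455_a_at) and -0.031 to 0.066 (1435837_at). Hspb8 ranged from -0.19 to 0.011 (1456434_x_at), -0.32 to 0.030 (1417013_at) and -0.17 to 0.020 (1417014_at). Hspb7 ranged from -0.088 to 0.051 (1421290_at) and -0.16 to 0.17 (1421289_at). The last was 0.044 with array weights and 0.050 without both arrays numbered 2, with or without the block, where 1435837_at of Cryab was -0.0054.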
